A study of Homo sapiens with 16 samples.

Results

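The genes described here are the D cyclins CCND1, CCND2 and CCND3, the cyclin-dependent kinases CDK4, CDK6 and CDK2, and the CDK inhibitors CDKN2C, CDKN2D, CDKN1B and CDKN1C. They were taken by symbol from the table of estimated counts, which held all 10 among its 20502 entries with a symbol. The 16 libraries come from LNCaP, a line of human prostate cancer cells that respond to androgen, after transfection with a nonsense custom siRNA (NS) or with a pool of siRNAs against SLIRP, an RNA-binding protein studied as a corepressor of hormone-regulated transcription. Serum-free medium was then given to both, with ethanol vehicle (Veh) or 1 nM of the androgen dihydrotestosterone (DHT). The groups SLIRP-1nM DHT and SLIRP-Veh and their controls, NS-1nM DHT and NS-Veh, had 4 libraries each. The study's methods describe 2 biological replicates from each of 2 experiments, but the labels do not say which replicate numbers belong to which experiment, and p-values below measure only the spread between these libraries.

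D cyclins are made in response to mitogens, hormones among them, and bind CDK4 or CDK6 in G1 phase. The complexes phosphorylate the retinoblastoma protein and its relatives, which then release E2F transcription factors, and CDK2 with cyclin E or A carries the cell into S phase. Inhibitors of the INK4 family, such as CDKN2C and CDKN2D, bind CDK4 and CDK6 alone, whereas those of the Cip/Kip family, such as CDKN1B and CDKN1C, bind cyclin-CDK complexes and restrain CDK2 above all. In prostate epithelial cells androgen is known to promote passage through G1, and CDKN1B falls as androgen-dependent cells enter the cycle.

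Promoters are shown for 3 genes that stand for different outcomes below: CDK4 and CCND3, which were higher with SLIRP siRNA, and CDKN1B, which did not pass the test. RefSeq (GRCh38.p14) lists promoters for 6 of the 10 genes, with 11 transcription starts. Each line holds the 250 bases before a listed start, 5′ to 3′ on the strand of the gene, and capitals mark every E box (CACGTG), GC box (GGGCGG) and CCAAT box (CCAAT) found on either strand. For CCND3 the second of its 3 listed starts is shown, the one whose window held both a GC box and a CCAAT box.
CDK4, chr12:57752311-57752560, minus strand: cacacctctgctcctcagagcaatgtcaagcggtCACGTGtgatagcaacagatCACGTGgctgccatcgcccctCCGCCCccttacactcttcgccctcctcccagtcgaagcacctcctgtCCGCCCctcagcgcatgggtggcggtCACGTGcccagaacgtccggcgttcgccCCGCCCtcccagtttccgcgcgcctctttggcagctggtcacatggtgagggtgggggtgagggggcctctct
CCND3, chr6:41941809-41942058, minus strand: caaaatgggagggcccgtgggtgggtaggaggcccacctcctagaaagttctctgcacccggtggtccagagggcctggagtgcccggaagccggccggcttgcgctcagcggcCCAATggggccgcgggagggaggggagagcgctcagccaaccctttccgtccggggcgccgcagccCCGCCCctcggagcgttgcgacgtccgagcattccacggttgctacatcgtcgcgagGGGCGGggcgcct
CDKN1B, chr12:12717118-12717367, plus strand: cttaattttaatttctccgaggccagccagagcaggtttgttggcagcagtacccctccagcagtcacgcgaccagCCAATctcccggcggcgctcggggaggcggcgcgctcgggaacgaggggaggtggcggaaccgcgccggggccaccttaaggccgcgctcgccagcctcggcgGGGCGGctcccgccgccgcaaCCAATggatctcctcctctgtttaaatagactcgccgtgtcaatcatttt

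The CDK4 window held 3 E boxes, 216, 196 and 101 bases before the start, and 3 GC boxes. Of all 35116 listed windows, 6.34% held at least 1 E box and 0.0797% held 3 or more. The CCND3 window held GC boxes 70 and 13 bases and a CCAAT box 136 bases before the start. The CDKN1B window held 1 GC box and CCAAT boxes 174 and 50 bases before the start. A GC box was in 42.6% and a CCAAT box in 32% of all windows. None of the 11 windows of these genes held the E2F words TTTCCCGC, TTTGGCGC, TTTCGCGC or TTTGCCGC on either strand, which 2.79% of all windows held. At that share, 11 windows are too few to set these genes apart from all windows. These words only describe the letters of the windows, since no binding was measured here.

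Libraries held between 436353 and 1689708 counts, and NS-Veh 1 and 2 were the shallowest. Levels below are in CPM, the counts of a library scaled to a common total with TMM, and a count of 3 in a library corresponded to 1.78 to 6.96 CPM, so genes at a few CPM rest on a handful of reads. Such floors cover counting error only. The targeted gene, listed as C14orf156, was between 45.1 and 63.4 CPM in the 8 NS libraries and between 1.41 and 8.05 CPM in the 8 SLIRP siRNA libraries. Each of 8 luminal prostate markers was detected in every group, while of 8 markers of other cell types KRT5, TP63, DCN, PECAM1 and PTPRC had 0 counts in all libraries and KRT14, a basal marker, had 4 counts in all. The remaining 2, COL1A1 (5.64 to 21.9 CPM) and VIM (2.41 to 10.4 CPM), which stromal cells express, were detected in every library. A gene passed a test at a false discovery rate (FDR) below 0.01, in the quasi-likelihood test of edgeR, adjusted over all genes tested by the Benjamini-Hochberg method.

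CCND1 was the most abundant of the 10 genes per length of exon and CCND2 was listed at 0. The median over the 16 libraries was 121 CPM per kb for CCND1, 62.0 for CDK4 and 36.1 for CDKN1B. CDK2 (20.9 CPM per kb), CCND3 (19.9) and CDKN2C (19.9) came next, and their ranges over the libraries overlapped over most of their width. CDKN2D followed at 4.73, CDKN1C at 0.926 and CDK6 at 0.193 CPM per kb. The lowest CCND1 library (107 CPM per kb) was above the highest of CDK4 (88.5), while the lowest of CDK4 (40.7) lay below the highest of CDKN1B (47.1), so that these neighbours overlapped. CDKN2D, with 1.69 to 9.23 CPM per kb, lay below every library of CDK2, CCND3 and CDKN2C.

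**Figure D1:**
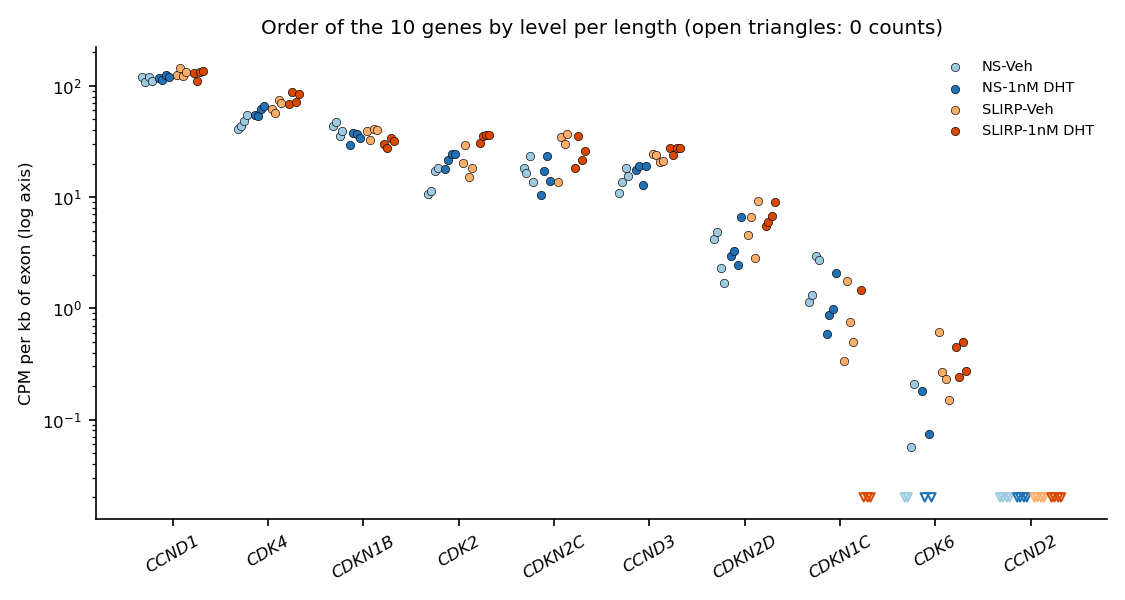
Level per length of exon of each gene (CPM per kb, log axis) in the 16 libraries, coloured by group, with genes in descending order of their median and open triangles for libraries with 0 counts. CCND1 lies at 107 to 143 CPM per kb, CDK6 at 0 to 0.609, and CCND2 has 0 counts throughout.

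Among the D cyclins, between CDK4 and CDK6, and between CDKN2C and CDKN2D, 1 gene carried most of the signal per length. With NS, CCND1 made up 88.7% ± 2.07 (SD, n = 4) of D cyclin signal in vehicle and 87.3% ± 2.23 in DHT, the rest being CCND3. With SLIRP siRNA it made up 85.4% ± 1.05 in vehicle and 82.8% ± 0.451 in DHT. CDK6 made up between 0 and 0.974% of the CDK4 and CDK6 signal in any library. CDKN2C made up 67.7% to 91.3% of the signal of CDKN2C and CDKN2D. These shares are descriptions and were not tested. Without division by length, the CCND1 share was 91.0% to 94.3%.

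The first question was how these genes differed between SLIRP siRNA and NS, with vehicle and DHT libraries pooled (8 against 8). The SLIRP siRNAs were given as a pool and compared with the NS siRNA only. Loss of SLIRP therefore cannot be told apart from other effects of either siRNA. CCND3 and CDK4 rose with SLIRP siRNA, by 1.49 times and 1.32 times, and none of the tested genes fell. Filtering left 6 of the 10 genes in the test (CCND1, CCND3, CDK4, CDK2, CDKN2C and CDKN1B), and 2 of these 6 were higher, against 17.8% of all 10160 genes tested that were higher and 17.4% that were lower. The median log2 fold change of the 6 was 0.45, beside -0.01 over all genes. At an FDR of 0.05, CCND1, CDK2 and CDKN2C passed as well, giving 5 of 6, where 23.2% of all genes were higher. The 10 genes were chosen with earlier results of these data known, so these counts and the median describe the chosen genes only.

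CCND3, the minor D cyclin of these cells, showed the clearest separation. It was at 22, 27.8, 37 and 31.3 CPM in NS-Veh and at 35.7, 38.6, 26.1 and 38.8 CPM in NS-1nM DHT. With SLIRP siRNA it was at 49.2, 48.6, 41.8 and 43.0 CPM in vehicle and at 56.1, 48.0, 55.4 and 55.5 CPM in DHT. Every SLIRP siRNA library was above every NS library. The log2 fold change was 0.57 ± 0.12 (SE, FDR = 0.000288). CCND3 lies on the minus strand of chromosome 6 (hg19, 41902672 to 42018095), with no other annotated gene over the exons of its canonical transcript.

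CCND1, the main D cyclin, was at 455 to 524 CPM in the 8 NS libraries (median 501) and at 473 to 606 CPM in the 8 SLIRP siRNA libraries (median 556). The ranges overlapped, and the log2 fold change of 0.15 ± 0.058 (FDR = 0.0338) did not pass. With DESeq2 it passed, at 0.16 ± 0.053 (FDR = 0.00905). CCND1 lies at 69455924 to 69469242 on chromosome 11 (hg19, plus strand), where LTO1 overlaps its exons on the other strand.

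CDK4, the kinase partner of D cyclins, was at 76.0, 81.2, 89.1 and 102 CPM in NS-Veh and at 102.8, 99.5, 115.9 and 122.9 CPM in NS-1nM DHT. With SLIRP siRNA it was at 115.5, 106.5, 140.1 and 130.7 CPM in vehicle and at 127.9, 165, 132.1 and 156.1 CPM in DHT. Within each treatment the SLIRP siRNA libraries lay above the NS libraries, whereas SLIRP-Veh 1 and 2 overlapped with NS-1nM DHT. The log2 fold change was 0.40 ± 0.097 (FDR = 0.000978). CCND3 and CDK4 passed in each of the 16 fits that left out 1 library, but with limma on the authors' normalized table CDK4 did not (0.42 ± 0.12, FDR = 0.0153). Exons of CDK4 (hg19, chromosome 12, 58141510 to 58149796, minus strand) overlap TSPAN31 on the other strand, and the sources used here do not say whether counting used strand, so reads of both genes may not be separable.

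CDK2, the kinase of the G1 to S step, was at 24.0, 25.5, 38.3 and 41.0 CPM in NS-Veh and at 39.9, 48.6, 54.9 and 54.9 CPM in NS-1nM DHT. With SLIRP siRNA it was at 45.0, 65.8, 33.7 and 41.2 CPM in vehicle and at 67.8, 79.0, 81.6 and 81.3 CPM in DHT. The groups overlapped in vehicle but not in DHT. Over all 16 libraries the log2 fold change was 0.50 ± 0.17 (FDR = 0.0157), which did not pass. It passed with treatment as a covariate (0.53 ± 0.12, FDR = 0.000387) and in 5 of the 16 fits without 1 library, namely without NS-1nM DHT 3 (FDR = 0.0095) or 4 (0.00915), or without SLIRP-Veh 1 (0.00625), 3 (0.00388) or 4 (0.00491). Exons of CDK2 (hg19, chromosome 12, 56360565 to 56366573, plus strand) overlap PMEL on the other strand. As for CDK4, reads of both genes may not be separable, which also holds for CCND1 with LTO1 and for CDK6 with CDK6-AS1.

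**Figure D2:**
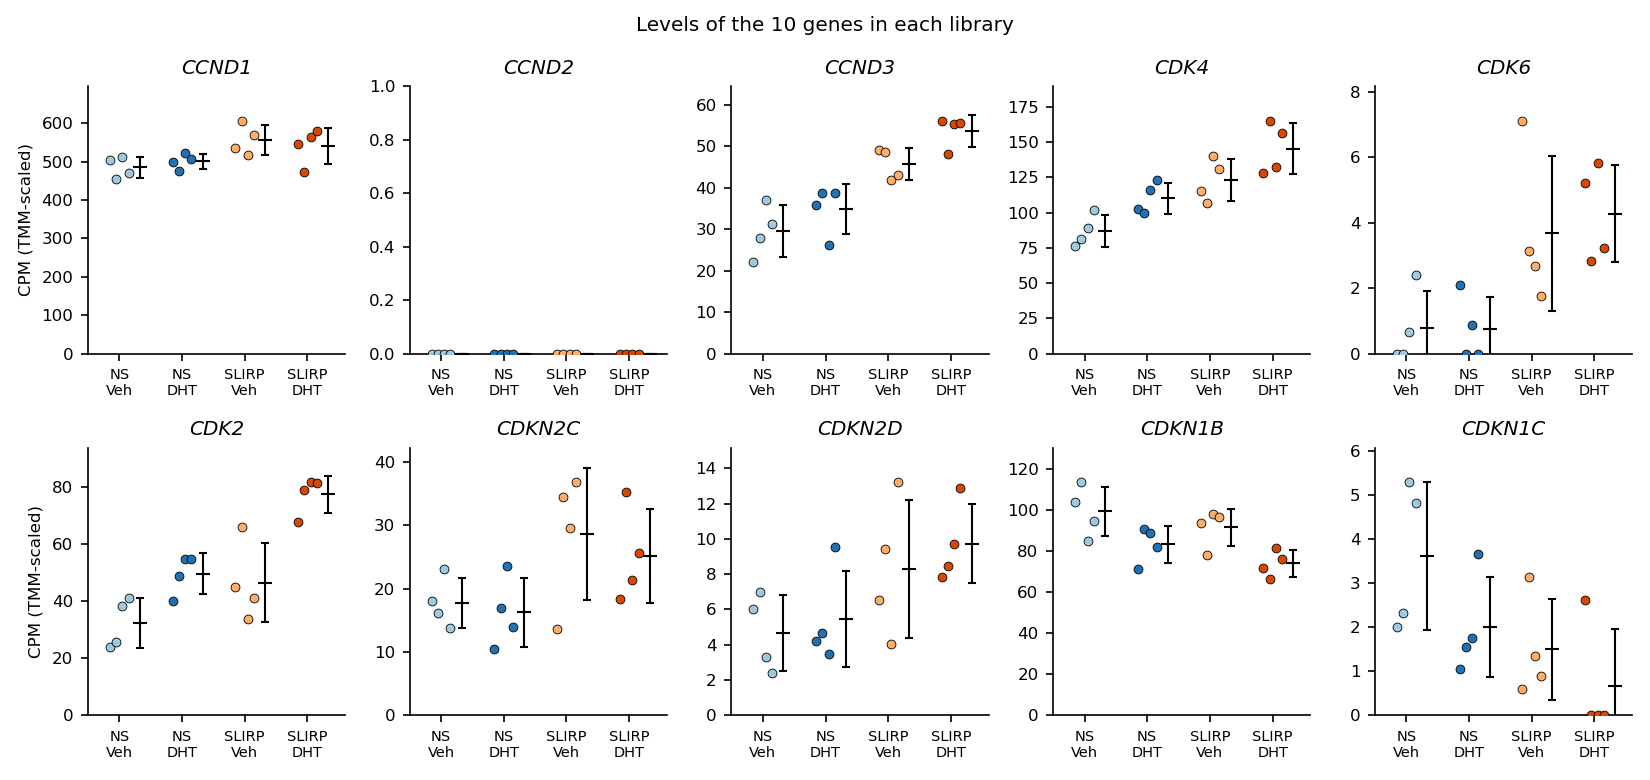
Each panel gives the CPM of 1 gene in the 16 libraries, with points for single libraries and a bar at the group mean ± SD (n = 4). The 8 SLIRP siRNA libraries of CCND3 sit between 41.8 and 56.1 CPM, all above the 8 NS libraries (22 to 38.8 CPM).

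Of the INK4 inhibitors, CDKN2C was at 10.5 to 23.5 CPM with NS (median 16.6) and at 13.6 to 36.8 CPM with SLIRP siRNA (median 27.7). SLIRP-Veh 1, at 13.6 CPM, lay within the NS range. The log2 fold change was 0.59 ± 0.21 (FDR = 0.0201), and it passed without SLIRP-Veh 1 (0.74 ± 0.19, FDR = 0.00231) or without NS-Veh 3 (0.70 ± 0.22, FDR = 0.0097). CDKN2D was too low for the 16-library test. Its locus is at 10677136 to 10679735 on chromosome 19 (hg19, minus strand), and that of CDKN2C at 51426417 to 51440306 on chromosome 1 (plus strand). The CDKN2D counts summed to 41 in the NS libraries and to 73 in the SLIRP siRNA libraries, a depth-adjusted ratio of 1.89 (exact 95% interval 1.27 to 2.85, which covers counting error only).

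Of the Cip/Kip inhibitors, CDKN1B was at 71.3 to 114 CPM with NS (median 89.9) and at 66.3 to 98.3 CPM with SLIRP siRNA (median 80.0). The ranges overlapped over most of their width, and the log2 fold change was -0.10 ± 0.099 (FDR = 0.433). With NS, CDKN1C held 1, 1, 8 and 6 counts in vehicle and 1, 2, 2 and 5 in DHT. With SLIRP siRNA it held 1, 2, 1 and 1 counts in vehicle and 2, 0, 0 and 0 in DHT. Its sums of 26 and 7 counts gave a ratio of 0.286 (interval 0.105 to 0.677), in the opposite direction to CDKN2D. CDKN1B lies at 12838432 to 12875303 on chromosome 12 (hg19, plus strand) and CDKN1C at 2904443 to 2907005 on chromosome 11 (minus strand).

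CDK6, which can replace CDK4 in the D cyclin complexes, held 0, 0, 1 and 3 counts in NS-Veh and 2, 0, 1 and 0 in NS-1nM DHT. It held 12, 2, 2 and 2 counts in SLIRP-Veh and 4, 2, 6 and 4 in SLIRP-1nM DHT. The sums of 7 and 34 gave a ratio of 5.16 (interval 2.25 to 13.8), which was 4.24 without SLIRP-Veh 1, the library with 12 counts, and 7.70 without NS-Veh 4. In a fit with no filter on low counts, CDK6 passed (FDR = 0.00103), while CDKN2D (FDR = 0.0243) and CDKN1C (FDR = 0.0261) did not. In that fit 11.1% of 16885 genes were higher and 9.88% lower. CDK6 lies at 92234235 to 92465887 on chromosome 7 (hg19, minus strand), where CDK6-AS1 overlaps its exons on the other strand. CCND2 had 0 counts in all 16 libraries, which allows up to 0.183 CPM over their sum.

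SLIRP siRNA was then compared with NS within each treatment, in a model of the 4 groups that tested 7 of the 10 genes, CDKN2D included. In vehicle 1 of the 7 was higher, CDK4 (0.45 ± 0.13, FDR = 0.00473), against 11.8% of 10677 genes higher and 9.84% lower. The CDK4 call was lost without NS-Veh 1 (FDR = 0.0199), NS-Veh 2 (0.0109), NS-Veh 3 (0.0198), SLIRP-Veh 3 (0.0249) or SLIRP-Veh 4 (0.0164), and with limma on the normalized table (0.0292). CCND3 was at 0.54 ± 0.18 (FDR = 0.0178) although its groups did not overlap. CDK2, CDKN2C and CDKN2D had log2 fold changes of 0.37, 0.55 and 1.09, with an FDR of 0.144, 0.15 and 0.0774.

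In DHT 3 of the 7 were higher, against 12.8% of all genes higher and 11.6% lower. CDK2 rose by 1.56 times (0.64 ± 0.16, FDR = 0.00147), CCND3 by 1.54 times (0.63 ± 0.16, FDR = 0.00244) and CDK4 by 1.31 times (0.39 ± 0.11, FDR = 0.0061). In each of these 3 genes the 4 SLIRP-1nM DHT libraries were above the 4 NS-1nM DHT libraries. The CDK2 call held in all 16 fits without 1 library. CCND3 lost its call without NS-1nM DHT 3 (FDR = 0.0142), and CDK4 without NS-1nM DHT 1 (0.0184), NS-1nM DHT 2 (0.025), SLIRP-1nM DHT 2 (0.0251) or SLIRP-1nM DHT 4 (0.0213). With limma on the authors' normalized table none of the 3 passed, at an FDR of 0.0841 for CDK2, 0.0375 for CCND3 and 0.121 for CDK4.

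**Figure D3:**
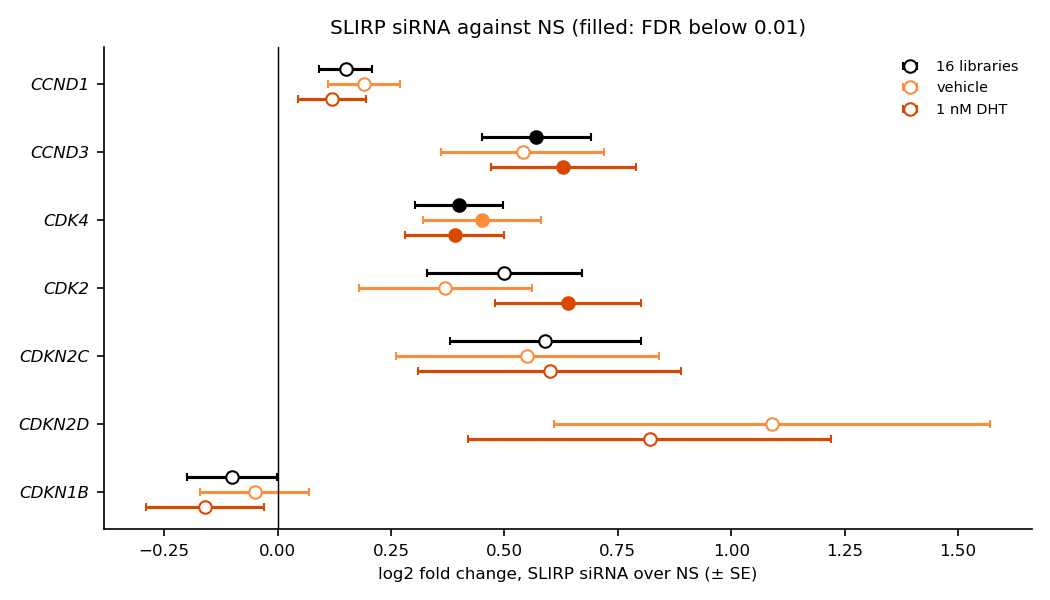
Log2 fold change (SLIRP siRNA over NS, ± SE) of the tested genes over all 16 libraries, in vehicle and in 1 nM DHT, with filled points for an FDR below 0.01 by edgeR. CCND3 and CDK4 are filled over 16 libraries, CDK4 alone in vehicle, and CCND3, CDK4 and CDK2 in DHT.

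The next question was whether androgen changed these genes. In NS cells none of the 6 tested genes passed, where 1.31% of 10360 genes did in either direction by edgeR, and 2 of the 6 had an unadjusted p below 0.05, as 1479 of all 10360 genes did. These were CDK2, at 0.50 ± 0.18 (FDR = 0.142), and CDK4, at 0.29 ± 0.12 (FDR = 0.222). DESeq2 and limma also called none of them. CCND1 differed little, at 0.03 ± 0.069 (FDR = 0.893), with group means of 485 ± 26.8 CPM (SD, n = 4) in vehicle and 501 ± 19.6 CPM in DHT.

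In SLIRP siRNA cells CDK2 rose with DHT by 1.71 times (log2 fold change 0.78 ± 0.17, FDR = 0.00396). It was the only one of the 7 tested genes called, in a comparison where 0.637% of all genes were higher and 0.534% lower. All 4 SLIRP-1nM DHT libraries (67.8 to 81.6 CPM) lay above the 4 SLIRP-Veh libraries (33.7 to 65.8 CPM), the closest being SLIRP-Veh 2. The call was lost without SLIRP-1nM DHT 3 (FDR = 0.0151) or 4 (0.0128), or without SLIRP-Veh 1 (0.0212), 3 (0.021) or 4 (0.0225), and with limma on the normalized table (0.74 ± 0.23, FDR = 0.201). CDKN1B had a log2 fold change of -0.31 ± 0.13 with DHT here (FDR = 0.214) and of -0.20 ± 0.12 in NS cells (FDR = 0.507).

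The DHT response with SLIRP siRNA minus that with NS tests whether the siRNAs differed in their androgen response. None of the 7 genes passed, nor did any of the 10677 genes (0%) by edgeR, of which 388 had an unadjusted p below 0.05. DESeq2 called 0 and limma on the normalized table called 1 of all genes, and neither called a D cyclin, CDK or inhibitor. The difference for CDK2 was 0.27 ± 0.25 (log2) and that for CDK4 was -0.06 ± 0.17. The CDK2 call in SLIRP siRNA cells alone is therefore not shown to differ from its response in NS cells.

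**Figure D4:**
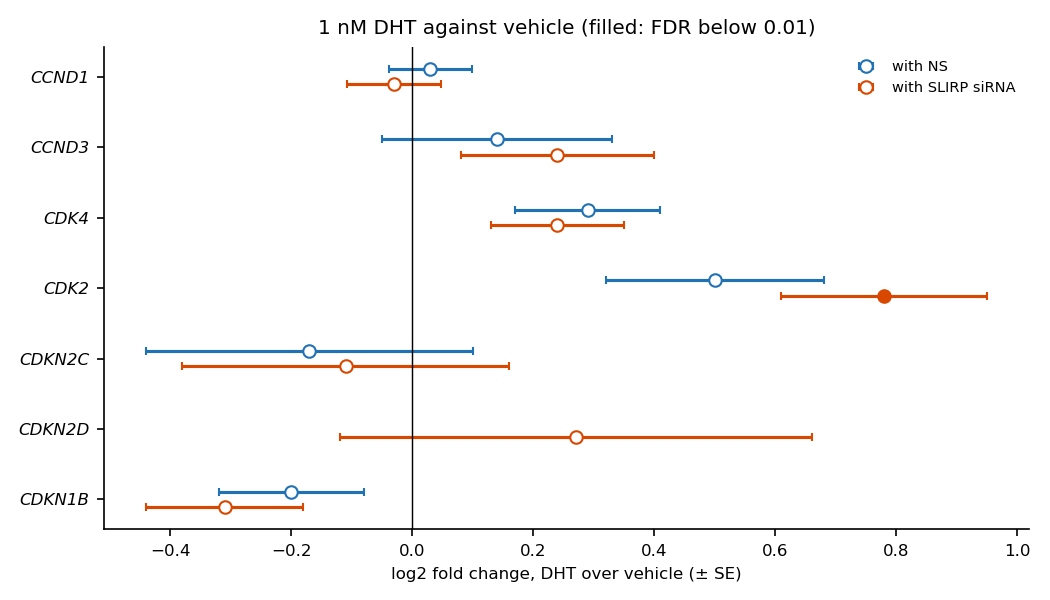
Log2 fold change (1 nM DHT over vehicle, ± SE) of the tested genes with NS and with SLIRP siRNA, with filled points for an FDR below 0.01 by edgeR. CDK2 with SLIRP siRNA is the single filled point, at 0.78 ± 0.17. CDKN2D was tested with SLIRP siRNA only.

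Other genes of the G1 to S pathway were followed in a list of 49, of which 47 were tested over the 16 libraries. With SLIRP siRNA 18 were higher and 3 lower, beside 17.8% higher and 17.4% lower of all genes, and their median log2 fold change was 0.14. This list too was chosen with earlier results of these data known. The groups below are small, and counts such as 1 of 3 or 1 of 6 are too few to set apart from those shares. In a group of cyclins, kinases, CDC25 phosphatases and cofactors 9 of 12 rose and none fell, with a median of 1.01. The group was not limited to partners of the G1 kinases and included CDK1 and CDC25B, both among the 9. CCNA2, the cyclin that binds CDK2 in S phase, rose by 1.81 ± 0.16 (FDR = 1.48e-10), from 8 to 56.6 CPM with NS to 100 to 144 CPM with SLIRP siRNA. CDC25A, the phosphatase that activates CDK2, rose by 1.68 ± 0.20 (FDR = 5.77e-08).

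Of 3 tested genes listed as other CDK inhibitors 2 rose, CDKN3 (2.08 ± 0.24, FDR = 2.46e-08) and CDKN1A (1.07 ± 0.11, FDR = 1.9e-09). CDKN2A did not (-0.18 ± 0.23, FDR = 0.531). CDKN1A, a Cip/Kip inhibitor, was named here after its values were seen. The difference between CDKN1A and CDKN1B was not tested. Of the E2F and DP factors 4 of 10 rose, among them E2F2 (1.99 ± 0.21, FDR = 4.53e-09), an activator of S phase genes. The retinoblastoma gene RB1 rose by 0.35 ± 0.083 (FDR = 0.000931), the 1 of 3 pocket proteins to pass, and it too was named after its values were seen.

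Among 13 tested genes for degradation of G1 regulators 1 rose and 2 fell, shares no higher than those of all genes (17.8% and 17.4%). SKP2, whose ligase marks CDKN1B for degradation, fell by 0.80 ± 0.21 on the log2 scale (FDR = 0.00216), from 15.3 to 31.4 CPM with NS to 7.70 to 22.2 CPM with SLIRP siRNA, with overlapping ranges. CUL4B, a ubiquitin ligase scaffold, fell by 0.27 ± 0.067 (FDR = 0.00145). Of 6 upstream factors 1 rose, and CTNNB1, the beta-catenin gene, fell by 0.51 ± 0.079 (FDR = 3.2e-06).

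The listed genes downstream of this pathway had log2 fold changes of at least 0.63 (TK1, ± 0.16). The 6 tested of the 10 genes described here reached 0.59 at most (CDKN2C, ± 0.21). These 2 values overlap within their SE, and the difference between the lists was not tested. Of the described genes that missed the filter, CDK6 was at 2.19, CDKN2D at 0.91 and CDKN1C at -1.61 in the fit with no filter. All 15 genes of a list of E2F targets rose with SLIRP siRNA (median log2 fold change 1.17), where 17.8% of all genes were higher. Like the 10 genes and the other lists, this list and that of mitotic genes were chosen with earlier results of these data known. Their counts and fold changes therefore describe the chosen genes only. TYMS rose by 2.22 ± 0.15 (FDR = 7.1e-13) and PCNA by 1.71 ± 0.15 (FDR = 1.27e-10), both needed for DNA synthesis. All 8 of a list of mitotic genes rose (median 1.40), MKI67, the proliferation marker, by 1.82 ± 0.13 (FDR = 7.44e-13). With NS the E2F targets summed to 688 to 918 CPM in vehicle and 1220 to 1500 in DHT, and with SLIRP siRNA to 2260 to 2440 in vehicle and 2790 to 3410 in DHT, and no group overlapped with another. With DHT 7 of the 15 E2F targets were higher in NS cells, where 0.849% of all genes were, and 3 of 15 in SLIRP siRNA cells, where 0.637% were. The difference between these responses passed for 0 of the 15. In bulk RNA, more cells in cycle and more RNA per cell cannot be told apart.

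**Figure D5:**
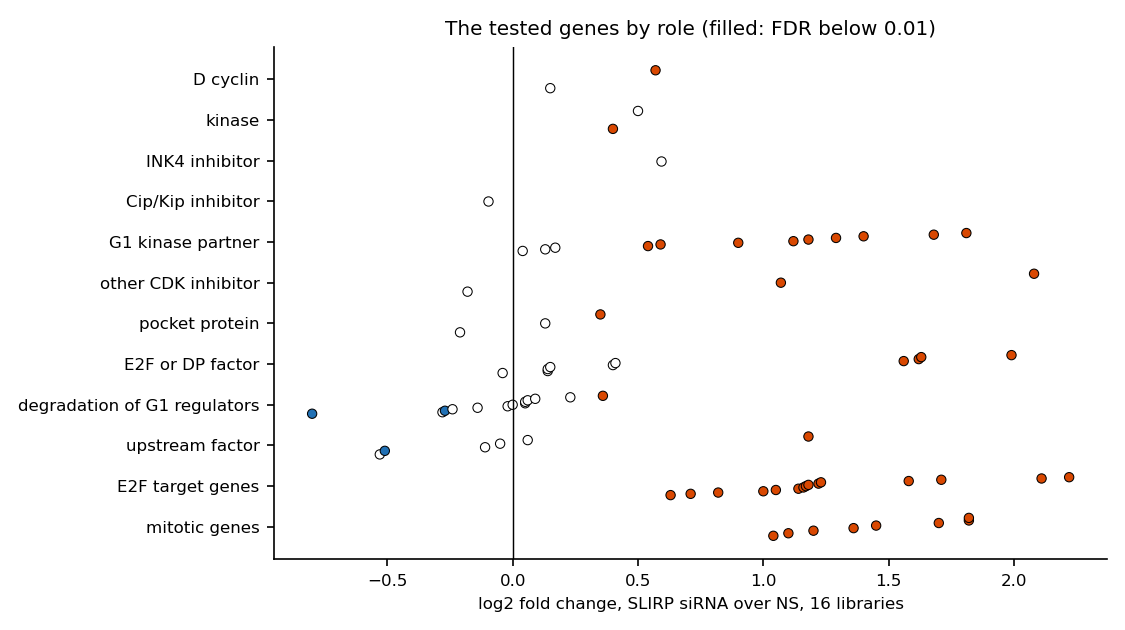
Log2 fold change (SLIRP siRNA over NS, 16 libraries) of each tested gene by role, the upper 4 lines being the genes described here and the others the remaining G1 to S pathway, E2F targets and mitotic genes, filled orange for higher and blue for lower at an FDR below 0.01 by edgeR. E2F targets and mitotic genes, lists chosen with earlier results of these data known, are all filled orange. The 6 tested genes of the upper 4 lines lie at or below 0.59. CDK6, CDKN2D, CDKN1C and CCND2 missed the filter of this test and are not shown. On the line of other CDK inhibitors, CDKN3 is at 2.08, CDKN1A at 1.07 and CDKN2A at -0.18. The line of G1 kinase partners includes CDK1 and CDC25B.

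Other gene groups moved with the siRNA as well. All 8 tested interferon-stimulated genes were lower, where 17.4% of all genes were, and IFIT1 fell by 4.29 ± 0.22 on the log2 scale (FDR = 4.47e-16). The summed level of the 10 listed was 833 to 1220 CPM with NS and 227 to 289 CPM with SLIRP siRNA. Of 8 luminal markers 4 were lower and none higher over the 16 libraries, 5 were lower and 1 higher in vehicle, and 5 were lower and 2 higher in DHT. In the same order, 17.4%, 9.84% and 11.6% of all genes were lower and 17.8%, 11.8% and 12.8% higher. Over the 16 libraries FOLH1, which encodes prostate-specific membrane antigen, fell by 0.68 ± 0.064 (FDR = 4.8e-10), while KLK3 and KLK2, named after their values were seen, were at 0.42 ± 0.38 (FDR = 0.385) and 0.79 ± 0.49 (FDR = 0.191). The summed level of all 8 was 3950 to 4520 CPM with NS and 2870 to 3370 CPM with SLIRP siRNA. The part of either in the changes of D cyclins, kinases and inhibitors was not tested. The other cell type markers summed to 11.3 to 30 CPM in any library, nearly all from COL1A1 and VIM.

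Across the 16 libraries, the genes whose log2 CPM was most like that of a given gene were sought among 6960 with a mean count of at least 30. These correlations describe libraries that share groups and depth and carry no test. CDK4 was most like LMNB2, a nuclear lamin gene (r = 0.949), and MPI (0.946). CCND3 was most like FAF1 (0.933) and NOP14 (0.921), and CDK2 was most like GALNT7 (0.907) and CS, the citrate synthase gene (0.905). CCND1 was most like HIGD1A (0.857) and C6orf72 (0.825). Among the inhibitors, CDKN1B was most like TMEM38B (0.867) and NIPSNAP3A (0.854), and CDKN2C was most like PLS3 (0.831) and OSGIN2 (0.786). CDKN2D was most like TMEM201 (0.864) and HPRT1 (0.821). With group means removed, the correlations for the first gene of each lay between 0.608 for CDK2 and 0.80 for CDK4.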

How the data were processed

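RNA of the 16 libraries was aligned to hg19 by the authors, who deposited estimated counts per gene, rounded to whole numbers, and a normalized table, whose values are a linear score scaled to the upper quartile of each library and 1000. The submitters' processing notes name CASAVA and RSEM, with no version. Of 20531 entries, 29 had no symbol and were left out (0.0305% to 0.042% of counts).

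Tests on the estimated counts used edgeR 4.0.16 in R 4.3.3 (TMM, filterByExpr, glmQLFit, glmQLFTest, Benjamini-Hochberg adjustment, FDR of 0.01). All 16 libraries (SLIRP siRNA against NS, no covariate) or the 8 NS libraries (DHT) were fitted, and the rest were contrasts of a 4-group model. Log2 CPM used a prior count of 2. Lengths come from canonical transcripts of GENCODE on hg19, promoters from RefSeq. Replicates of a group differed beyond sampling noise (chi-square over degrees of freedom 1.21 to 2.37). The fits were tested on simulated data, where no called change had the wrong sign. The sign does not measure how many changes a fit misses. The simulation also gave the share of changes recovered, which is not reported here. Alternatives were DESeq2 1.42.0, limma 3.58.1 on the normalized table (pseudocount 1), other scalings, filters, an FDR of 0.05, covariates, the replicate block and leaving out each library. Leaving libraries out of ratios of summed counts was chosen after seeing the data. The genes and lists were chosen with earlier results of these data known. All 10 genes were named, and for other lists up to 4 rises and 4 falls could be. One gene that this rule chooses is not reported here. Figures used matplotlib 3.10.9.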

Additional observations from a re-analysis of the deposited data

Results flagged for a closer look

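In 2 of the 36 groups of 4 libraries with counts, 1 library stood far from the other 3, and chance flags about 1 in 20. CCND3 in SLIRP-1nM DHT 2 was at 48.0 CPM while the other 3 libraries lay at 55.4 to 56.1 CPM, a gap of 0.911 of the group's range. CDKN1C in SLIRP-1nM DHT 1 was at 2.61 CPM, from 2 counts, while the other 3 libraries had 0.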

How the results depend on the processing

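Over 16 libraries 2 genes were higher with SLIRP siRNA, and 4 were with no filter on low counts (CDK2 and CDK6 added) and 5 at an FDR of 0.05. With the replicate block 4 were (CDK2 and CDKN2C added, CDK2 at 0.53 ± 0.12 and an FDR of 0.000423). In this comparison the block also took out the treatment. With treatment alone as a covariate 3 were (CDK2 added, FDR = 0.000387). In vehicle the count of 1 became 2 at an FDR of 0.05 and 0 with limma on the normalized table, and with limma it became 0 in DHT (from 3) and for DHT with SLIRP siRNA (from 1). Same-numbered libraries deviated together weakly (correlations 0.00025 to 0.202 over 4 pairs of groups, all above 0, own number the best in 1 to 3 of 4), which fell short of 0.1 in at least 1 pair of each and was not taken as pairing. The block changed no other call, and values within an experiment could not be given. Without 1 library the counts ranged from 2 to 4 over 16 libraries, from 0 to 1 in vehicle, from 2 to 3 in DHT and from 0 to 1 for DHT with SLIRP siRNA. Limma called fewer of all genes and another split in DHT (553 higher and 816 lower, beside 1370 and 1236 by edgeR). In vehicle it called 762 and 629 (1259 and 1051 by edgeR), for DHT with NS 0 and 0 (88 and 48), and with SLIRP siRNA 6 and 6 (68 and 57). The cause was not tested.

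Without division by length the CCND1 share of D cyclins was 94.3% (vehicle) and 93.5% (DHT) with NS and 92.4% and 91.0% with SLIRP siRNA, that of CDK6 in CDK4 and CDK6 was likewise 0.761%, 0.687%, 2.97% and 2.96%, and that of CDKN2C in SLIRP-1nM DHT was 71.5%, since lengths differ. Signs turned only for values that passed no test. In the difference of DHT responses limma gave -0.06 for CCND3, -0.02 for CDKN2C and 0.06 for CDKN2D, and the replicate block gave -0.05 for CDKN2C. Without 1 library this difference ranged from -0.07 to 0.19 for CCND3, -0.16 to 0.03 for CDK4, -0.26 to 0.27 for CDKN2C and -0.44 to 0.20 for CDKN2D. Such ranges were -0.14 to 0.01 for CDKN1B with SLIRP siRNA in vehicle, -0.38 to 0.08 for CDKN2C with DHT in NS cells, and -0.05 to 0.03 for CCND1 and -0.43 to 0.11 for CDKN2C with DHT in SLIRP siRNA cells. Depth limits CDK6, CDKN1C and CDKN2D, where single reads move a library's value. CDKN2D could not be tested in 2 of the 16 fits without 1 library, as it missed the filter.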
